A study of Saccharomyces cerevisiae with 6 samples.

Results

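Hexose transporters and glucose sensors of the budding yeast Saccharomyces cerevisiae are described here across 6 one-colour Affymetrix arrays. The set comprised 10 genes, taken by symbol from the platform annotation: the transporter genes HXT1, HXT2, HXT3, HXT4, HXT5, HXT6, HXT7 and GAL2 and the sensor genes SNF3 and RGT2. A probe set was found for 9 of them, each the only one of its gene, among 5449 genes tested. HXT6 had no probe set under its own symbol. The probe set named for HXT7 carries the suffix _s_at, given to probe sets that can bind more than 1 transcript, and HXT6 and HXT7 encode nearly identical proteins, so signal from these genes cannot be told apart here.

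Of the 6 arrays, 3 carry the label wild type (WT) and 3 that of a mutant of gpm1, the gene of the glycolytic enzyme phosphoglycerate mutase, which the series title calls a knock-out. Both groups were grown in batch with ethanol and glycerol as carbon sources. The strain background, deletion marker, number of mutant clones and sampling time are not stated in the labels used here. Nothing in the labels tells whether replicate arrays stem from separate cultures. The p-values therefore reflect the spread among these 6 samples alone, which may be technical.

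Yeast takes up glucose by facilitated diffusion through the Hxt proteins, which differ in affinity and are made according to how much glucose is present. Snf3 and Rgt2 resemble transporters but act as sensors of extracellular glucose at the plasma membrane. With glucose bound, they signal through the casein kinases Yck1 and Yck2 to destroy the corepressors Mth1 and Std1, which releases the repressor Rgt1 from HXT promoters. Transcription of several HXT genes is also held down by the glucose repressor Mig1.

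The arrays themselves set limits on what follows. The deleted gene ran against the labels. GPM1 (YKL152C) gave log2 signals of 5.16, 5.12 and 5.17 on the arrays labelled WT but 12.51, 12.48 and 11.82 on those labelled gpm1 (limma adjusted p = 8.1e-05; exact two-sided permutation p = 0.1, the smallest that 3 against 3 arrays allow). Directions below are therefore those of the labelled groups and not of the genotype. The libraries labelled gpm1 also differed among themselves, with a median SD over genes of 0.248 against 0.0484 for those labelled WT. Labelled gpm1 replicate 3 stood nearest to the WT arrays, with 1 gene at least 2-fold above and 51 at least 2-fold below their mean, against 270 and 356 for replicate 1 and 164 and 216 for replicate 2. Poly-A control transcripts, added to the RNA before labelling, averaged 5.92 to 6.22 over the WT arrays, and 7.14, 6.67 and 6.21 in labelled gpm1 replicates 1, 2 and 3. Results are given with and without replicate 3 where it moves them.

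The question for these genes was how far their transcripts differed between the labelled groups. HXT5 lay below and HXT2 above WT on all 3 arrays labelled gpm1, HXT7 split within that group, HXT3 and RGT2 stayed close to WT, and HXT1 and GAL2 were not above background on any array. None of the 9 genes passed the test over all 6 arrays: 0 were lower, where 0.789% of all genes were called lower, and 0 were higher, where 0.0184% were (limma, adjusted p under 0.05, 0.807% in either direction). At an unadjusted limma p under 0.05 stood 3 of the 9, HXT2, HXT4 and HXT5, against 22.4% of all genes. The same 3 genes had labelled groups that did not overlap, HXT4 and HXT5 below WT and HXT2 above, where 34.6% of all genes did not overlap (15.4% below and 19.2% above). A difference of 2-fold or more was reached by 1 gene downward, HXT5, against 2.09% of all genes, and by 0 upward, against 0.569%. The median of the log2 differences (labelled gpm1 less labelled WT throughout) was -0.059 over the 9 genes and 0.019 over all genes.

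**Figure D1:**
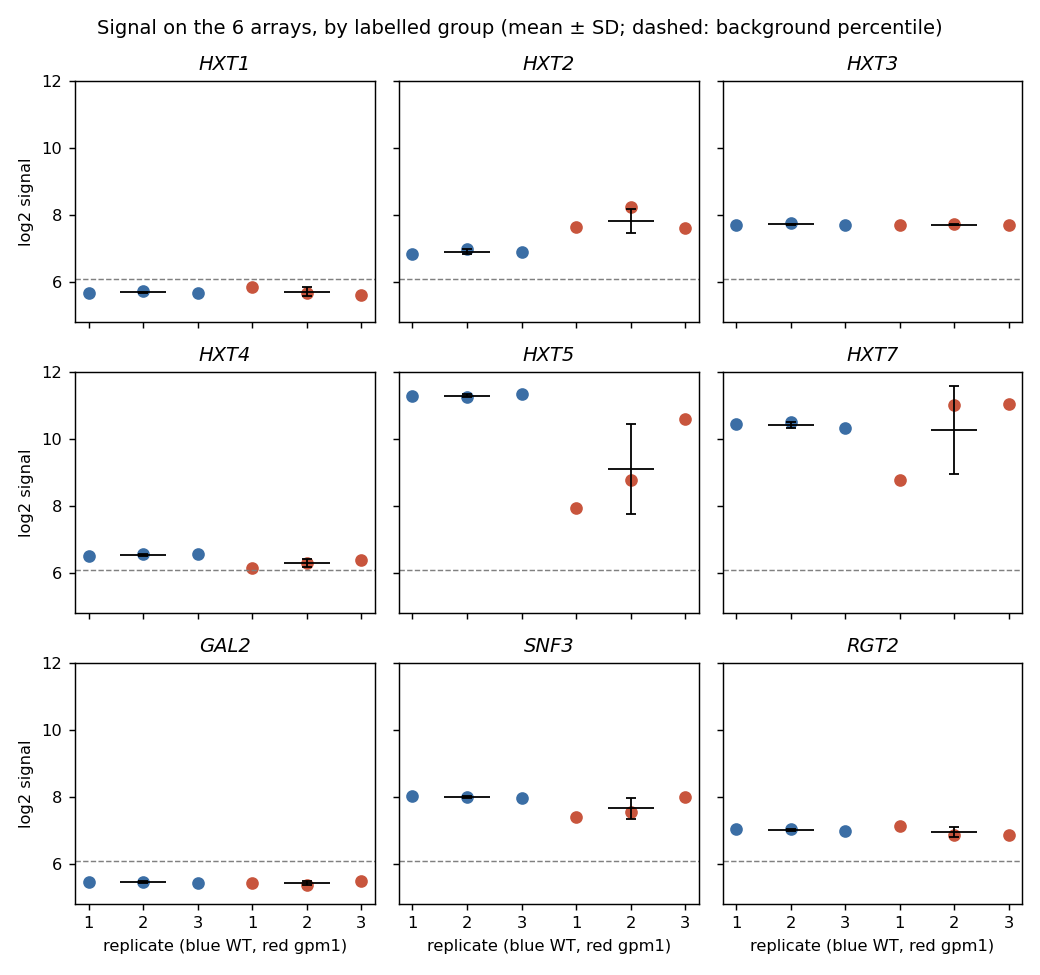
The log2 signal (vertical axis) of the 9 measured genes is plotted on each array, with the 3 arrays labelled WT in blue and the 3 labelled gpm1 in red, black bars for mean and SD, and a dashed line at 6.09, the background percentile. HXT5 spans 7.95 to 10.60 on the arrays labelled gpm1 against 11.26 to 11.34 on those labelled WT, HXT7 has 1 low array at 8.76, and HXT1 and GAL2 lie under the dashed line on all 6 arrays.

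HXT5 encodes a transporter of moderate affinity that is known for expression in slowly growing and stationary cells and on carbon sources that are not fermented. Its log2 signal was 11.29, 11.26 and 11.34 on the arrays labelled WT and 7.95, 8.76 and 10.60 on labelled gpm1 replicates 1, 2 and 3. All 3 arrays labelled gpm1 lay below all 3 labelled WT. The distance varied widely among them. Against the WT mean the signal was 10.2-fold lower in replicate 1, 5.80-fold lower in replicate 2 and 1.63-fold lower in replicate 3. Replicates 1, 2 and 3 stand in the same order by HXT5, from lowest to highest, as by poly-A controls, from 7.14 to 6.21, and the part of the controls in the result was not tested. The means were 11.30 ± 0.04 and 9.10 ± 1.36 (SD, n = 3 each), a log2 difference of -2.20 (SE 0.63, 95% interval -3.72 to -0.67, limma adjusted p = 0.196), or 4.58-fold. The difference did not pass the threshold. Of all genes, 99.7% had a smaller SD than HXT5 among the arrays labelled gpm1. Further down than HXT5 lay 4, 17 and 109 of the other 5448 genes in replicates 1, 2 and 3. Without labelled gpm1 replicate 3 the log2 difference was -2.94 (SE 0.24) and passed (limma adjusted p = 0.0012, in a range of 0.0012 to 0.506 over the alternative settings). In that fit 41.1% of all genes passed, 19.5% lower and 21.6% higher, so a pass there does not set a gene apart.

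HXT2 encodes a transporter of high affinity that is induced by low glucose. Its log2 signal was 6.82, 6.98 and 6.90 on the arrays labelled WT and 7.63, 8.24 and 7.59 on labelled gpm1 replicates 1, 2 and 3. The groups did not overlap, and replicate 2 was the highest array. The means were 6.90 ± 0.08 and 7.82 ± 0.36 (SD, n = 3 each), a log2 difference of 0.92 (SE 0.19, 95% interval 0.47 to 1.37), or 1.89-fold higher. With an offset of 64 added to the linear values the log2 difference of HXT2 fell to 0.66. HXT2 had the smallest limma p of the 9 genes, yet its adjusted p of 0.114 did not pass. Without replicate 3 the log2 difference was 1.03 and passed (limma adjusted p = 0.0105, in a range of 0.0105 to 0.506 over the alternative settings). Unlike HXT5, HXT2 stood about as far from WT in replicate 3 (1.61-fold) as in replicate 1 (1.66-fold), with 2.53-fold in replicate 2. The part of the poly-A controls, at 7.14, 6.67 and 6.21 on these arrays, in the HXT2 result was not tested. In replicate 3, where few genes departed from WT, 5 of the other 5448 genes lay further up than HXT2, against 637 in replicate 1 and 39 in replicate 2.

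HXT7, like HXT6, encodes a transporter of high affinity that is repressed by abundant glucose. The probe set named for HXT7 gave a log2 signal of 10.44, 10.50 and 10.32 on the WT arrays, whereas it gave 8.76, 11.01 and 11.04 on labelled gpm1 replicates 1, 2 and 3. Replicate 1 lay below all 3 WT arrays and replicates 2 and 3 lay above them. Replicate 1 was 3.15-fold lower than the WT mean, while replicates 2 and 3 were 1.50-fold and 1.54-fold higher. The means, 10.42 ± 0.09 and 10.27 ± 1.31 (SD, n = 3 each), hide this split, with a log2 difference of -0.15 (SE 0.61, 95% interval -1.62 to 1.32, limma adjusted p = 0.886). Without labelled gpm1 replicate 1 the log2 difference was 0.61 (SE 0.08). That was just short of the threshold (limma adjusted p = 0.0517, in a range of 0.0517 to 0.948 over the alternative settings), in a fit that called 1.1% of all genes. The array left out there is the one that the HXT7 values themselves set apart, so the small SE follows from that choice. The log2 difference was -0.52 without replicate 2 and -0.53 without replicate 3. With array weights, which let limma count variable arrays less, it was 0.11. The poly-A control mean was highest in replicate 1, at 7.14, and the ACT1 probe sets, which compare the 3' and the 5' end of the actin transcript, differed there by 0.65 against 0.46 to 0.58 on the other 5 arrays. The part of these measures in the low HXT7 value was not tested. In replicate 3, 8 of the other 5448 genes lay further up than HXT7, against 516 in replicate 2. In replicate 1, 102 of them lay further down.

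**Figure D2:**
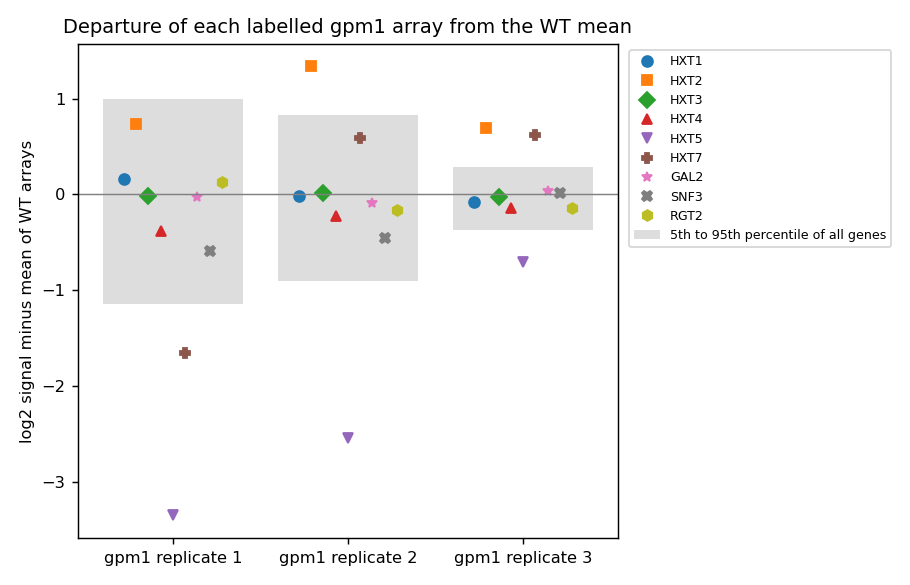
For each array labelled gpm1 (horizontal axis), points give the log2 signal of the 9 genes minus the mean of the arrays labelled WT (vertical axis), and grey bars span the 5th to the 95th percentile of all 5449 genes. The grey bar reaches down to -1.14 in replicate 1 and runs from -0.37 to 0.29 in replicate 3, where HXT2 at 0.69, HXT7 at 0.62 and HXT5 at -0.70 lie outside it.

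HXT1 and HXT3 encode the transporters of low affinity that serve cells in abundant glucose, and GAL2 encodes the galactose permease, which also carries glucose and is induced by galactose. HXT1 ranged from 5.67 to 5.71 on the arrays labelled WT and from 5.61 to 5.84 on those labelled gpm1, and GAL2 from 5.41 to 5.46 and from 5.35 to 5.48. Both groups lay under 6.09 throughout, the 95th percentile of probe sets whose gene ID was not found in the S. cerevisiae gene table, so HXT1 and GAL2 were not detectable above background. No fold is given for them, and these values do not show whether their transcripts differed between the groups (limma adjusted p = 0.894 and 0.855). HXT3 did lie above background on all arrays, at 7.70, 7.74 and 7.71 for WT and 7.70, 7.73 and 7.69 for gpm1. The 6 HXT3 values overlapped within 0.052 on the log2 scale. Its log2 difference was -0.012 (SE 0.08, 95% interval -0.20 to 0.18, limma adjusted p = 0.929), and 0.826% of all genes had a smaller SD than HXT3 among the arrays labelled gpm1.

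HXT4 encodes a transporter of moderate to high affinity that is induced by low glucose. Its log2 signal was 6.49, 6.55 and 6.55 on the arrays labelled WT and 6.15, 6.30 and 6.39 on those labelled gpm1, close to the background percentile. The groups did not overlap, by a small margin. The log2 difference was -0.25 (SE 0.10, 95% interval -0.48 to -0.018, limma adjusted p = 0.212), or 1.19-fold lower, which did not pass, and it was -0.14 with an offset of 64 added to the linear values. Without replicate 3 the log2 difference was -0.30 and passed (limma adjusted p = 0.0311, in a range of 0.0311 to 0.506 over the alternative settings).

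Several of these genes lie next to each other in the genome of the S288C reference (assembly R64, used for gene order only). HXT1 and HXT5 are neighbours, with AHT1 between HXT4 and HXT1. HXT7 and HXT6 are neighbours, with YDR344C between HXT6 and HXT3. Within the first cluster the log2 differences were -0.25 for HXT4 and -2.20 for HXT5, and HXT1 was at background level. Within the second, the SD among the arrays labelled gpm1 was 1.31 for HXT7 and 0.020 for HXT3.

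The sensor genes SNF3 and RGT2 were both above background on all 6 arrays. SNF3 encodes the sensor that responds to low glucose and RGT2 the one that responds to high glucose. SNF3 was 8.02, 8.01 and 7.96 on the arrays labelled WT and 7.40, 7.55 and 8.01 on labelled gpm1 replicates 1, 2 and 3. Replicates 1 and 2 lay below WT, by 1.51-fold and 1.37-fold, and replicate 3 lay within the WT range. The SNF3 log2 difference was -0.34 (SE 0.16, 95% interval -0.74 to 0.056, limma adjusted p = 0.257), or 1.27-fold lower, and did not pass. Without replicate 1 it was -0.22, and without replicate 3 it was -0.52 and passed (limma adjusted p = 0.0056, in a range of 0.0056 to 0.521 over the alternative settings). RGT2 was 7.03, 7.03 and 6.97 on the arrays labelled WT and 7.14, 6.85 and 6.87 on those labelled gpm1. Its groups overlapped, with replicate 1 above WT and replicates 2 and 3 below. The RGT2 log2 difference was -0.059 (SE 0.11, 95% interval -0.32 to 0.20, limma adjusted p = 0.742). Whether SNF3 and RGT2 differed from each other in this was not tested.

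**Figure D3:**
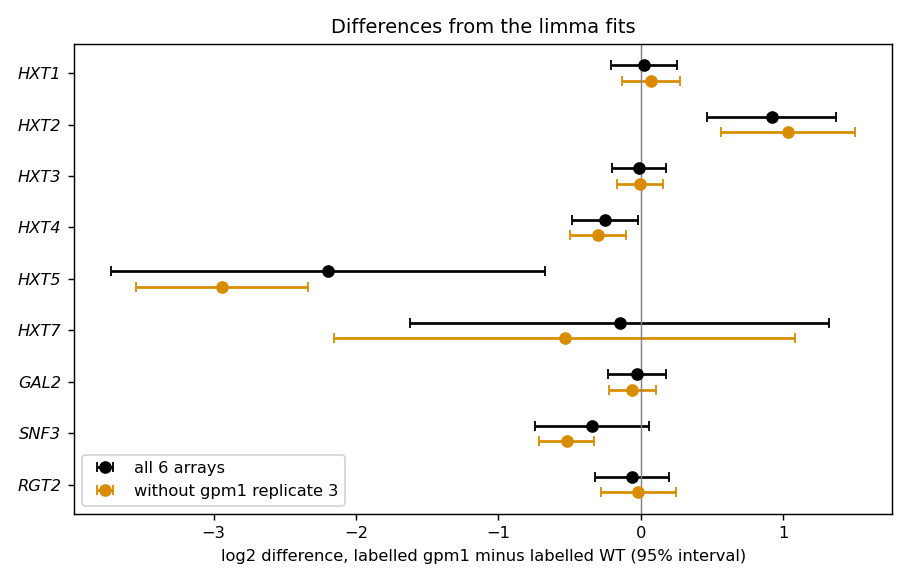
Points give labelled gpm1 minus labelled WT on the log2 scale (horizontal axis) for each of the 9 genes with its 95% interval from limma, in black for all 6 arrays and in orange without labelled gpm1 replicate 3. The intervals are not adjusted for the number of genes. They also assume equal spread in both labelled groups, whereas the median SD over genes was 0.248 for gpm1 and 0.0484 for WT. Intervals that allow unequal spread were not computed. The plotted intervals of HXT5, HXT2 and HXT4 exclude 0 in both fits, that of SNF3 only without replicate 3. HXT7 has an interval of -1.62 to 1.32 with all arrays. With all arrays none of the 9 genes passed after adjustment, and 22.4% of all genes had an unadjusted limma p under 0.05.

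Without labelled gpm1 replicate 3, 3 of the 9 genes were lower (HXT4, HXT5 and SNF3) and 1 was higher (HXT2), against the 41.1% of all genes called in that fit. With array weights HXT5 passed at -2.34 (limma adjusted p = 0.0091) and HXT2 at 1.08 (limma adjusted p = 0.0123), in a fit that called 18.5% of all genes. Their ranges over the alternative settings are those given above.

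The genes whose profiles over the 6 arrays came nearest to HXT5, HXT2 and HXT7, the members that spanned more than 1 on the log2 scale, were found by the root mean square difference of profiles centred on their own means. Nearest to HXT5 were GSC2, for a subunit of the cell wall glucan synthase, at 0.272, and SNZ1, a stationary phase gene of vitamin B6 synthesis, at 0.289. GSC2 was 7.80, 8.94 and 10.13 on labelled gpm1 replicates 1, 2 and 3 and 10.7 to 10.8 on the arrays labelled WT. SNZ1 was 8.83, 9.04 and 10.75 on labelled gpm1 replicates 1, 2 and 3 and 11.30 to 11.45 on the arrays labelled WT. Like HXT5, both were lowest in replicate 1 and nearest to WT in replicate 3, which follows from their choice by likeness. The log2 differences were -1.81 for GSC2 (SE 0.54, limma adjusted p = 0.196) and -1.85 for SNZ1 (SE 0.49, limma adjusted p = 0.185). Nearest to HXT2 were URA7, for a CTP synthase, at 0.111, and RLI1, for an ATP-binding protein of ribosome recycling, at 0.123. The log2 differences of URA7 and RLI1 were 0.80 (limma adjusted p = 0.196) and 0.71 (limma adjusted p = 0.166), and that of URA7 was 0.51 without labelled gpm1 replicate 2. Nearest to HXT7 were SAM2, for S-adenosylmethionine synthetase, at 0.201, and CHO1, for phosphatidylserine synthase, at 0.202. SAM2 was 10.08, 11.97 and 11.72 on labelled gpm1 replicates 1, 2 and 3 and 11.43 to 11.60 on the arrays labelled WT, so that it too was low in replicate 1 alone. Among the members, HXT5 and HXT2 differed by 1.78 in this measure, HXT5 and HXT7 by 1.16 and HXT2 and HXT7 by 0.874.

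**Figure D4:**
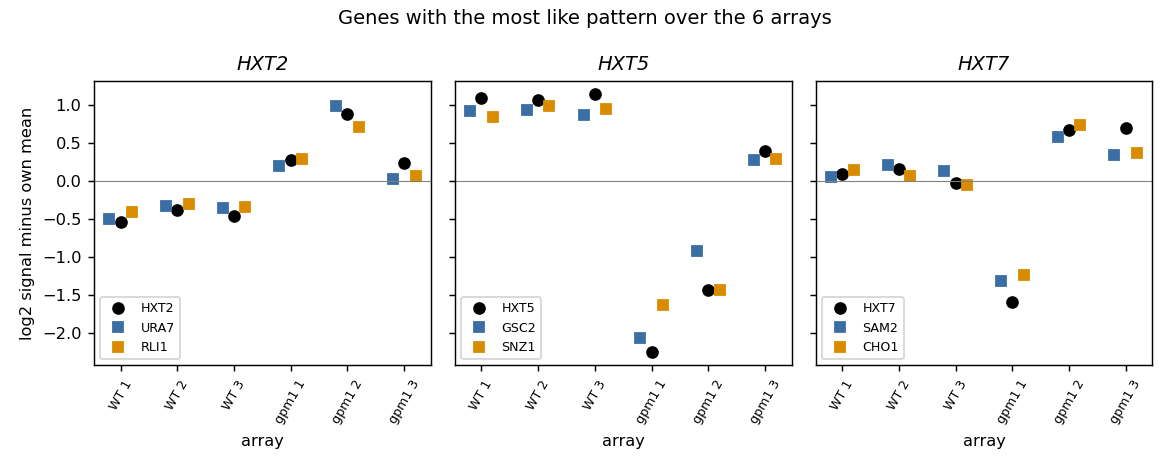
The log2 signal minus the gene's own mean (vertical axis) is plotted on the 6 arrays for HXT2, HXT5 and HXT7 (black circles), each with the 2 genes of most like pattern (blue and orange squares). HXT5, GSC2 and SNZ1 are low on labelled gpm1 replicates 1 and 2, and HXT7, SAM2 and CHO1 are low on replicate 1 only.

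Around these genes, 4 lists of related genes were read in the same fit, and over all 6 arrays 0 genes of any list passed (limma, adjusted p under 0.05). At an unadjusted limma p under 0.05 stood 1 other hexose transporter gene, 4 genes of the sensor pathway, 0 of the galactose regulon and 2 other sugar porters, of 8, 12, 5 and 6 measured, where 22.4% of all genes did. Of the other hexose transporter genes, HXT8 to HXT17, 8 of 10 had a probe set, and 7 of the 8 were under the background percentile on all 6 arrays. HXT9 alone was above it, at 6.39 to 6.53, as far as its _s_at probe set can be assigned to it. The median log2 difference of the 8 was -0.0044, which does not show whether their transcripts differed, as 7 of them were under background. The smallest p-values were those of HXT14 (limma adjusted p = 0.191), HXT17 (0.372) and HXT11 (0.459), all 3 under the background percentile on all 6 arrays, so no difference is read from them.

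In the pathway downstream of the sensors all 12 genes were measured and 0 passed, with a median log2 difference of 0.11. HXK2, for the hexokinase that also acts in glucose repression, was 10.28, 10.30 and 10.27 on the arrays labelled WT and 10.60, 11.01 and 10.65 on those labelled gpm1, a log2 difference of 0.47 (SE 0.13, limma adjusted p = 0.187). All 3 arrays labelled gpm1 lay above WT for HXK2, and likewise for YCK2 and the corepressor gene STD1. YCK2 stood at 0.35 (limma adjusted p = 0.191) and STD1 at 0.41 (limma adjusted p = 0.196). STD1 was dim, at 6.47 to 6.49 on the arrays labelled WT and 7.02, 7.02 and 6.62 on those labelled gpm1. Its log2 difference was 0.26 with an offset of 64 added to the linear values. MTH1, for the other corepressor, was named after its values were seen, at 7.54, 7.58 and 7.63 on the arrays labelled WT and 8.17, 8.31 and 7.67 on those labelled gpm1. Its groups did not overlap, with replicate 3 close to WT (log2 difference 0.47, limma adjusted p = 0.207). In the other direction, RGT1, the gene of the repressor at HXT promoters, and GRR1, for the ubiquitin ligase subunit that targets Mth1 and Std1, lay below WT on all 3 arrays, at -0.086 (limma adjusted p = 0.510) and -0.17 (limma adjusted p = 0.323), both named after their values were seen. Thus 4 of the 12 genes lay above WT and 2 below without overlap, where 19.2% and 15.4% of all genes did. Without replicate 3, HXK2, YCK2, STD1, MTH1 and MIG1 were higher and MIG3 was lower, MIG1 and MIG3 also named after their values were seen. These are 5 and 1 of 12 genes in a fit that called 21.6% of all genes higher and 19.5% lower. MIG3 was at the background percentile, with 6.03 to 6.13 on the arrays labelled WT and 5.75 to 6.03 on those labelled gpm1.

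The galactose regulon without GAL2 had 5 of 6 genes measured, and 0 passed, also without replicate 3. Its median log2 difference was 0.073. GAL1, for galactokinase, was 6.09 to 6.10 on the arrays labelled WT and 5.76 to 5.96 on those labelled gpm1, above the background percentile on 1 array, so no difference is read from it (limma adjusted p = 0.247). GAL80, for the repressor of the regulon, stood at 0.21 (limma adjusted p = 0.366), and at 0.079 without labelled gpm1 replicate 1. GAL10, for the epimerase, stood at 0.16 (limma adjusted p = 0.622), and turned to -0.066 without that array. It was 6.91 in labelled gpm1 replicate 1 and 6.23 to 6.33 on the other 5 arrays.

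Other sugar porters had 6 of 7 genes measured and 0 past the threshold, with a median log2 difference of -0.38. MPH2, for a maltose permease, came nearest to the threshold, at 5.93, 5.96 and 5.90 on the arrays labelled WT and 6.44, 6.54 and 6.43 on those labelled gpm1 (log2 difference 0.54, SE 0.08, limma adjusted p = 0.055). It passed in 4 alternative settings, at 0.0174 with a trend and robust prior, 0.0166 with array weights, 0.0446 without labelled gpm1 replicate 1 and 0.0037 without replicate 3, in a range of 0.0037 to 0.428 over all settings. The WT values of MPH2 lay under the background percentile, and its _s_at probe set may bind a related transcript. With an offset of 64 added to the linear values the log2 difference of MPH2 fell to 0.29. MAL11, for another maltose transporter, stood at -0.49 (limma adjusted p = 0.169) and STL1, for a glycerol symporter, at -0.85 (limma adjusted p = 0.228). STL1 was 8.75 and 8.79 in labelled gpm1 replicates 1 and 2, while replicate 3 at 10.09 lay within the WT range of 9.96 to 10.13, and without replicate 3 the log2 difference was -1.29. Without replicate 3, MPH2 was higher, and MAL11, STL1 and MAL31, the last named after its values were seen, were lower, 1 and 3 of 6 genes where 21.6% and 19.5% of all genes were called. ITR1, an inositol transporter gene also named after its values were seen, was 9.57 in labelled gpm1 replicate 1 and 11.21 to 11.30 on the other 5 arrays. HXT7 shared that low array, but its values in replicates 2 and 3 lay above WT.

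**Figure D5:**
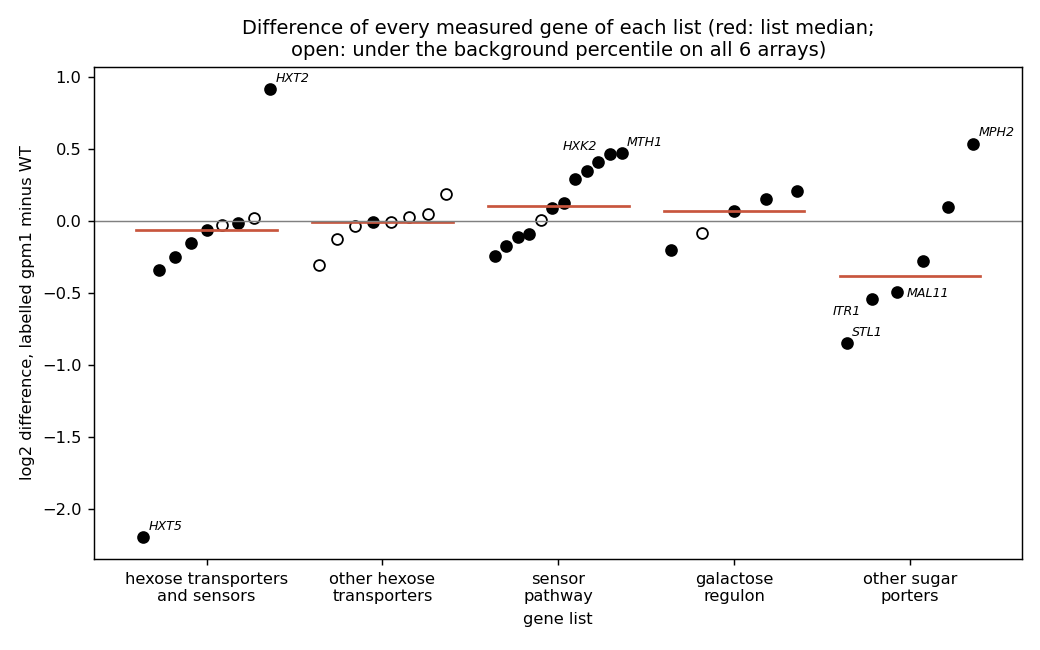
Each circle is a measured gene at its log2 difference, labelled gpm1 minus labelled WT (vertical axis), by list (horizontal axis), with a red line at the list median and open circles for genes under the background percentile on all 6 arrays. HXT5 at -2.20 and HXT2 at 0.92 lie outside the range of the other 4 lists, -0.85 to 0.54.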

How the data were processed

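Probe sets were summarised by the authors with PLIER, per the submitters' processing notes, and the deposited values were taken as log2 because they ran from 4.88 to 13.12. The log base, any offset and the scaling between arrays are not stated there, and every fold rests on base 2. An offset would make folds of dim genes smaller. The table has 10928 probe sets. The platform's gene annotation covers 7245 of these and gives 1 symbol for 7244. Gene IDs of 5498 matched the S. cerevisiae R64 gene table, used for names and gene order, and 1746 did not and served as background, whose 95th percentile was 6.09. The brightest probe set per gene was kept. Labelled gpm1 was compared with labelled WT, 3 arrays each, by limma 3.58.1 (lmFit, eBayes) in R 4.3.3. For each gene the fit assumes equal spread in both groups, although the median SD over genes was 0.248 for gpm1 and 0.0484 for WT. The tests were two-sided, with Benjamini-Hochberg adjustment over 5449 genes and a threshold of 0.05. The fit was tested on simulated data, whose noise was independent between genes and arrays. Departures shared by many genes of an array were not simulated. The number of arrays limits the precision. Members and lists were chosen with earlier results of these data known. Named were all members, the 3 list genes with the smallest p or any past the threshold, and the 2 genes most like each member spanning over 1. In all 15 alternative settings were run. Figures used matplotlib 3.10.9 (Python 3.11.15).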

Additional observations from a re-analysis of the deposited data

How the results depend on the processing

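The count of genes past the threshold, 44 over all 6 arrays, was 1009 with array weights and between 11 and 2240 when 1 array was left out (11, 19 and 13 without WT replicates 1, 2 and 3; 60, 12 and 2240 without gpm1 replicates 1, 2 and 3). In the fit with a replicate block it was 31, and no hexose transporter or sensor gene passed. HXT2 was then at a limma adjusted p of 0.137 and HXT5 at 0.213. Same-numbered arrays deviated from their group means with correlations of 0.051, 0.024 and -0.13, and differently numbered arrays with -0.24 to 0.18. These values show no pairing by number, but so few arrays cannot exclude it. With array weights HXT2 stood at 1.08 and HXT5 at -2.34, both past the threshold, and HXT7 turned to 0.11, SAM2 to 0.0068 and CHO1 to 0.19. Quantile normalization turned HXT3 to 0.017 and RGT2 to 0.016. With 1 array left out, log2 differences ran from 0.71 to 1.03 for HXT2, -0.30 to -0.18 for HXT4, -2.94 to -1.62 for HXT5 and -0.52 to -0.22 for SNF3, all of 1 sign, and across 0 from -0.046 to 0.070 for HXT1, -0.023 to 0.00047 for HXT3, -0.53 to 0.61 for HXT7, -0.058 to 0.0061 for GAL2, -0.066 to 0.28 for GAL10, -0.62 to 0.33 for SAM2, -0.49 to 0.50 for CHO1 and -0.84 to 0.026 for ITR1. The cause of these shifts was not tested. HXT1, HXT4, GAL2 and RGT2 gave no value in the fit without the dimmest 20% of genes, to which they belong.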

Other observations

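Some related genes had a second, dimmer probe set. That of MPH2 was 5.56, 5.49 and 5.49 on the arrays labelled WT and 5.95, 5.96 and 5.75 on those labelled gpm1, so its groups did not overlap either, though both lay under the background percentile of 6.09. The second probe set of HXT9 was 5.99 to 6.22, close to that percentile. Those of HXT13 and HXT17 lay under it on all 6 arrays.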
